A study of Mus musculus with 568 samples.

Results

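A set of 10 genes of the WNT pathway and of the primitive streak and early mesoderm was followed from pluripotent stem cells to germ cell-like cells: Wnt3, Wls, Dkk1, Dkk4, Axin2, Lef1, T, Mixl1, Eomes and Evx1. These 10 genes were named with measured values of these samples already in view, so their own levels and differences are given below as a description, without a test. Of the 16335 genes in the bulk table, 8 were members, because Dkk1 and Dkk4 had no row there. The single-cell table of 15718 genes held all 10.

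The cells were XRep cells, a female mouse embryonic stem cell (ESC) line that is a hybrid of 129S1/SvImJ (musculus) and CAST/EiJ (castaneus). Every group shared the same alleles: a truncation of Tsix on the musculus X chromosome, which directs X-inactivation to that X, a GFP reporter in Hprt on the musculus X (XGFP), a tdTomato reporter in Hprt on the castaneus X (XTomato), rtTA at Rosa26, and doxycycline-inducible piggyBac transgenes for Prdm14, Blimp1 and Tfap2c. Bulk RNA was sequenced in 16 libraries, 4 from each of 4 groups. ESCs were the starting cells. Epiblast-like cells (EpiLCs) were made from them with bFGF and activin A, with 48 h of culture before and again after a split. Primordial germ cell-like cells (PGCLCs) were EpiLC aggregates kept for 5 days with 1.5 µg/ml doxycycline and sorted by the surface markers CD61 and SSEA1 into XGFP+ cells, in which the reporter of the musculus X was active, and XGFP- cells, in which it was silent. Since the germ cell factors were driven by transgenes and not by added cytokines, the groups model induced and not embryonic specification. ESCs and EpiLCs were not sorted. The labels give no clone or culture for a library, and the text of the study describes 2 clones with 2 technical replicates each, so the errors below may hold mostly technical spread. Germ cells were then followed singly in reconstituted ovaries (rOvaries), in which sorted PGCLCs were cultured for 6 days with somatic cells of fetal female gonads. The XGFP+ constitutive population came from XGFP+ PGCLCs, and the XGFPhigh, XGFPintermediate and XGFPlow populations came from XGFP- PGCLCs and were sorted by their GFP level.

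The bulk libraries held 29.78M to 46.53M reads. The groups carried the markers of their labels: the summed normalized count of 6 ESC markers was 127500 to 143700 in ESCs and 2673 to 7018 in EpiLCs, and that of 5 EpiLC markers was 59370 to 70360 in EpiLCs and 3282 to 5623 elsewhere. ESC markers were also present in the sorted PGCLCs, at 44540 to 51690 in XGFP+ and 24250 to 31040 in XGFP- cells. The 7 PGCLC markers summed to 25440 to 29030 in PGCLCs against 8946 to 9511 in ESCs, but 3 of these 7 are the transgenes' own genes, whose endogenous and transgenic reads cannot be told apart here. Here and below a bulk level is a normalized count, that is, reads per gene divided by a size factor of the library.

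WNT proteins are secreted lipid-modified ligands. They bind Frizzled receptors and the LRP5 and LRP6 co-receptors, and the signal stops the destruction of β-catenin, which then enters the nucleus and switches on genes together with TCF and LEF factors. In the mouse embryo Wnt3 is needed for the primitive streak to form, and WNT and BMP signals together make epiblast cells competent to become primordial germ cells. T, Eomes, Mixl1 and Evx1 are transcription factors of the streak and of the mesoderm that leaves it, and germ cell precursors express some of them for a short time before they shut the somatic programme down.

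The sequences around the starts of these genes were read because TCF and LEF factors bind a short known motif. RefSeq promoter windows of GRCm38.p6 (mm10), from 250 bases before to 50 bases after the start, were present for 8 of the 10 genes. They were searched on both strands for CTTTGAA or CTTTGAT or CTTTGTT as TCF/LEF motifs, and for GGTGTGA, a T-box motif, and no match overlapped another. A TCF/LEF match was held by 3 genes, and they are shown here for their place in the pathway: T as the streak factor, Wnt3 as the ligand and Dkk1 as the secreted inhibitor. The T sequence is the 250 bases before the start, chr17:8434173-8434422, plus strand, and the other sequences are 30 bases around the matches, at chr11:103774182-103774211, plus strand, for Wnt3 and chr19:30549586-30549615, minus strand, for Dkk1. Each is written 5′ to 3′ on the strand of the gene, with the match in capitals, which in T is the reverse complement of CTTTGAA.
T: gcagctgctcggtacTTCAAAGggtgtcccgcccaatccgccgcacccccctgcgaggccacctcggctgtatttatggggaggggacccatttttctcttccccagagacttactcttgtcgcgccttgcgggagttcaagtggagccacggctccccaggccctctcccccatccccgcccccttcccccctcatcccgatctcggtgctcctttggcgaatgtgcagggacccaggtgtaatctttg
Wnt3: cctcaagtggaCTTTGTTccaactattggg
Dkk1: agCTTTGAAatcccatcccggCTTTGTTgt
The match in T lay 235 to 229 bases before the start. The match in Wnt3 lay at bases 19 to 25 after the start and thus in the first exon. In Dkk1 the CTTTGTT match lay 98 to 92 bases before the RefSeq start and the CTTTGAA match further upstream, and in the GENCODE annotation, whose Dkk1 transcript starts further upstream, both are in the first exon. Of all 32851 promoter windows, 13.9% held at least 1 of the 3 TCF/LEF motifs, with 5.14% for CTTTGAA, 3.73% for CTTTGAT and 5.85% for CTTTGTT, and 3.98% held the T-box motif, which was in none of the member windows. A match describes the letters in these windows and is no evidence of binding.

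Wnt3 (ENSMUSG00000000125, chr11:103774150-103817957 of GRCm38, plus strand) encodes the ligand that starts the streak in the embryo. Its normalized count was 52.8, 28.7, 50.5 and 26.02 in the 4 ESC libraries and 944, 1126, 1399 and 1852 in the 4 EpiLC libraries. The means were 39.5 ± 14.1 and 1330 ± 395 (SD, n = 4 in every group here and below), so Wnt3 was 33.7-fold higher in EpiLCs, a difference of 5.06 ± 0.23 on the log2(normalized count + 1) scale (± SE, likewise below). In PGCLCs the level was between those of both earlier stages and differed between the sorted groups. It was 134.2, 143.9, 184.7 and 199.7 in XGFP+ PGCLCs and 484, 512, 404 and 413 in XGFP- PGCLCs. XGFP+ PGCLCs were 8.03-fold below EpiLCs (log2 -2.97 ± 0.23), XGFP- PGCLCs 2.93-fold below (log2 -1.51 ± 0.23), and XGFP- PGCLCs 2.74-fold above XGFP+ PGCLCs (log2 1.46 ± 0.23). The order was EpiLC, XGFP- PGCLC, XGFP+ PGCLC and ESC, and no library of one group overlapped with another group. In a bulk library, fewer cells that express a gene and less RNA per cell cannot be told apart, which holds for every bulk difference below.

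Wls (ENSMUSG00000028173, chr3:159839672-159938664, plus strand) encodes the carrier that takes WNT proteins to the cell surface. It was at 186.3, 133.4, 307 and 233 in ESCs and at 604, 833, 781 and 1159 in EpiLCs, that is 3.93-fold higher in EpiLCs (log2 1.99 ± 0.30). PGCLCs had far less, with 28.1, 27.5, 21.1 and 11.6 in XGFP+ cells and 55.5, 46.7, 48.1 and 24.7 in XGFP- cells. Thus the carrier was lower in PGCLCs than in the ESCs from which the lineage started, while the ligand Wnt3 was higher than in ESCs. XGFP+ PGCLCs were 38.2-fold and XGFP- PGCLCs 19.3-fold below EpiLCs (log2 -5.23 ± 0.30 and -4.26 ± 0.30). Between the PGCLC groups the log2 difference was 0.97 ± 0.30 towards XGFP-, but the libraries overlapped, since XGFP- replicate 4 was below XGFP+ replicates 1 and 2. In both groups replicate 4 was the lowest library, and within each replicate number XGFP- was the higher.

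Axin2 (ENSMUSG00000000142, chr11:108920349-108950783, plus strand) encodes a scaffold of the β-catenin destruction complex that is itself switched on by WNT signalling and is widely used as its readout. Its levels in the early stages lay side by side, at 1289, 927, 1396 and 938 in ESCs and 1198, 1186, 1409 and 1602 in EpiLCs. These libraries overlapped, with a log2 difference of 0.26 ± 0.18. XGFP+ PGCLCs had the lowest values, 685, 573, 571 and 369. XGFP- PGCLCs were at 1428, 1238, 1144 and 869.9 and overlapped with both ESCs and EpiLCs. XGFP+ PGCLCs were 2.45-fold below EpiLCs (log2 -1.32 ± 0.18) and XGFP- PGCLCs 2.13-fold above XGFP+ PGCLCs (log2 1.10 ± 0.18), with every XGFP- library above every XGFP+ library. The ESC cultures had been kept in serum and LIF and, before induction, in 2i medium with the GSK3 inhibitor CHIR99021, which mimics a WNT signal, and the labels do not say in which medium the ESC libraries were harvested.

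Lef1 (ENSMUSG00000027985, chr3:131110471-131224356, plus strand) encodes a nuclear factor that takes β-catenin to its target genes. It was nearly silent in ESCs, with 20.2, 10.9, 23.1 and 15.8, and stood at 1773, 1376, 2251 and 1558 in EpiLCs. The EpiLC mean was 99.3-fold higher (log2 6.58 ± 0.17), the largest fold among the 8 members in this comparison. XGFP+ PGCLCs were at 899.6, 752, 758 and 705, below every EpiLC library, and XGFP- PGCLCs at 2690, 2557, 2479 and 2412, above every EpiLC library. The difference from EpiLCs was -1.14 ± 0.17 for XGFP+ and 0.57 ± 0.17 for XGFP- PGCLCs on the log2 scale, and XGFP- PGCLCs were 3.25-fold above XGFP+ PGCLCs (log2 1.71 ± 0.17). Lef1 was the 1 member whose level in XGFP- PGCLCs was above that in EpiLCs. The plot of the 8 members by library shows this order beside those of the other genes.

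**Figure D1:**
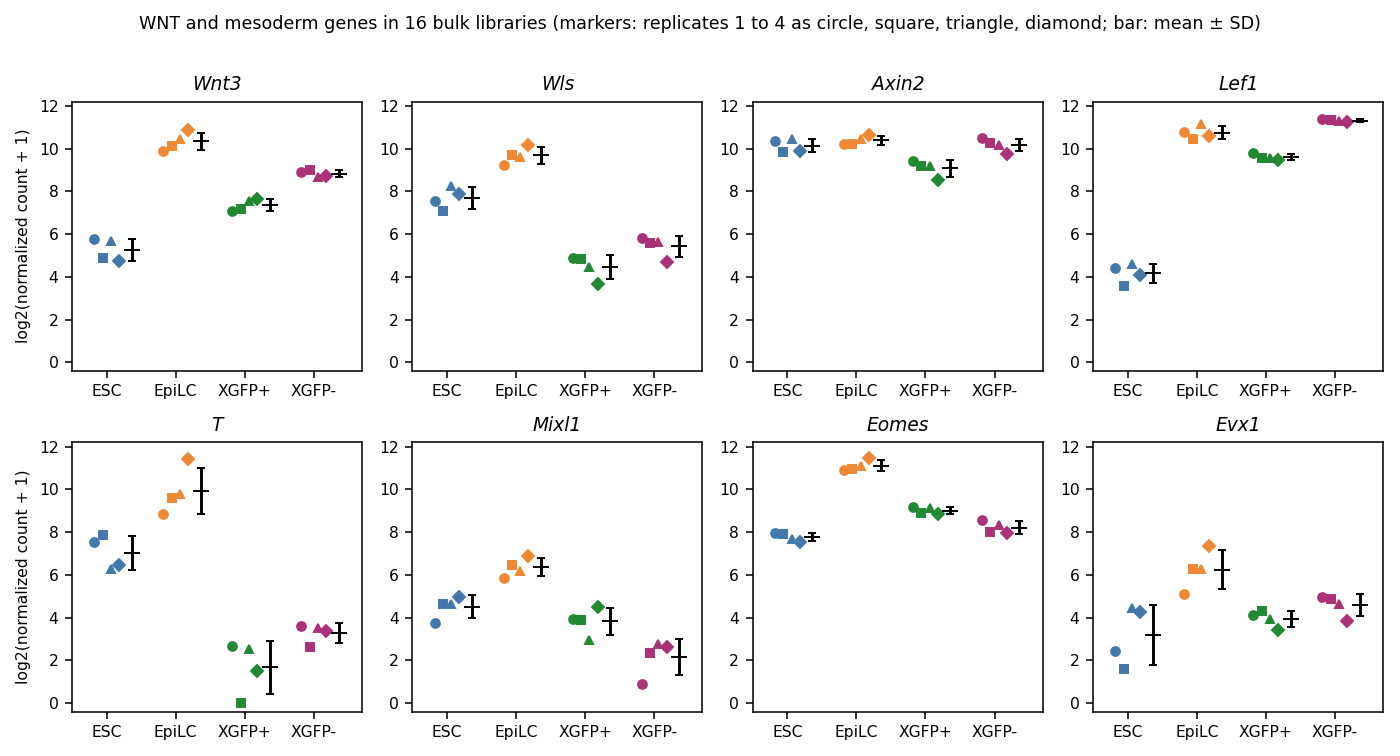
Normalized counts, plotted as log2(normalized count + 1), of the 8 members in the bulk table in each of the 16 libraries, with a panel per gene, a marker per library and a bar for the mean and SD of the log2 values. Lef1 was highest in XGFP- PGCLCs (2412 to 2690), while the other members were highest in EpiLCs by their group means.

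T (ENSMUSG00000062327, chr17:8434423-8442496, plus strand), also called Brachyury, is the T-box factor that drives mesoderm formation and movement through the streak. Its counts in ESCs were 185, 228, 75.7 and 87.1. In EpiLCs they were 452, 783, 884 and 2729, with replicate 4 far above the other libraries. EpiLCs were 8.41-fold above ESCs (log2 2.89 ± 0.56), and the log2 difference was 2.38 without EpiLC replicate 4. In PGCLCs T was almost gone, with 5.44, 0, 4.79 and 1.79 in XGFP+ cells and 11.3, 5.08, 10.6 and 9.28 in XGFP- cells. The log2 differences from EpiLCs were -8.24 ± 0.56 and -6.63 ± 0.56. Both PGCLC groups were also below every ESC library, and they overlapped with each other. At so few reads the log2 difference of 1.60 ± 0.56 between them leans on the pseudocount and was 0.56 with a pseudocount of 10. Within each replicate number XGFP- was the higher in 4 of 4 pairs, a pairing taken from the data and not from the labels. A replicate block on these 2 groups alone, added after seeing the data, gave a 95% interval of 0.70 to 2.50. That fit used a pseudocount of 1 and is a description, not a test.

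Eomes (ENSMUSG00000032446, chr9:118478212-118486132, plus strand) encodes a T-box factor of the streak that is needed for mesoderm and endoderm. Its counts were 244, 236, 206 and 186 in ESCs and 1891, 1982, 2204 and 2831 in EpiLCs, 10.2-fold higher (log2 3.34 ± 0.15). Unlike T, Eomes was still well expressed in PGCLCs and was higher in XGFP+ than in XGFP- cells. XGFP+ PGCLCs had 570.4, 478, 557 and 456, and XGFP- PGCLCs had 379, 252, 322 and 248. XGFP- PGCLCs were thus 1.72-fold below XGFP+ PGCLCs (log2 -0.79 ± 0.15), without overlap. The order was EpiLC, XGFP+ PGCLC, XGFP- PGCLC and ESC, but the lowest XGFP- library, at 248.4, was only just above the highest ESC library, at 243.6.

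Mixl1 (ENSMUSG00000026497, chr1:180693043-180697034, minus strand) encodes a homeobox factor of the streak that acts on mesoderm and endoderm. It was low throughout, with 12.3, 23.7, 24.2 and 30.5 in ESCs, and 57.03, 87.02, 72.53 and 115.5 in EpiLCs. EpiLCs were 3.66-fold above ESCs (log2 1.85 ± 0.41). In PGCLCs Mixl1 shared with Eomes the higher level in XGFP+ cells, at 14.5, 13.8, 6.70 and 21.5 against 0.867, 4.06, 5.77 and 5.15 in XGFP- cells. XGFP- PGCLCs were 3.56-fold lower (log2 -1.66 ± 0.41), with no overlap, but the nearest libraries, at 6.70 and 5.77, differed by less than 1 normalized count. At so few reads this log2 difference, like that of T, leans on the pseudocount. XGFP+ PGCLCs overlapped with ESCs.

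Evx1 (ENSMUSG00000005503, chr6:52313498-52318378, plus strand) encodes a homeobox factor of the posterior streak. Its counts in EpiLCs were 33.3, 77.1, 75.5 and 162. All 4 were above every library of the other groups, and replicates 1 and 4 were far apart. EpiLCs were 7.63-fold above ESCs (log2 3.06 ± 0.55). ESCs were at 4.49, 1.98, 21.03 and 18.1, where replicates 1 and 2 stood below replicates 3 and 4. For T the same ESC libraries split in the opposite direction. In PGCLCs Evx1 was at 16.3, 18.8, 14.4 and 9.85 in XGFP+ and at 30.3, 28.4, 24.0 and 13.4 in XGFP- cells, with a log2 difference of 0.64 and a 95% interval of -0.51 to 1.78. XGFP- replicate 4 lay inside the XGFP+ range, but within each replicate number XGFP- was the higher in 4 of 4 pairs. With the replicate block and the 2 groups alone, added after seeing the data, the interval was 0.12 to 1.16, which is likewise a description. ESC libraries overlapped with both PGCLC groups.

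Set side by side, the members were high in EpiLCs and then parted. From ESCs to EpiLCs 7 of the 8 were higher in every EpiLC library than in any ESC library, 0 were lower and Axin2 overlapped. Of all 16281 genes tested, 31.2% were higher and 29.5% lower without overlap in that comparison. All 8 were lower in every XGFP+ PGCLC library than in any EpiLC library (33.8% of all genes were higher and 36.1% lower). In XGFP- PGCLCs against EpiLCs, 6 were lower, Lef1 was higher and Axin2 overlapped (35.5% and 38% of all genes). Between the PGCLC groups, Wnt3, Axin2 and Lef1 were higher in every XGFP- library, Eomes and Mixl1 were lower in every XGFP- library, and Wls, T and Evx1 overlapped (24% and 21.7% of all genes). Because the members were chosen with these values known, nothing is read from these counts, and both comparisons with EpiLCs use the same 4 EpiLC libraries.

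**Figure D2:**
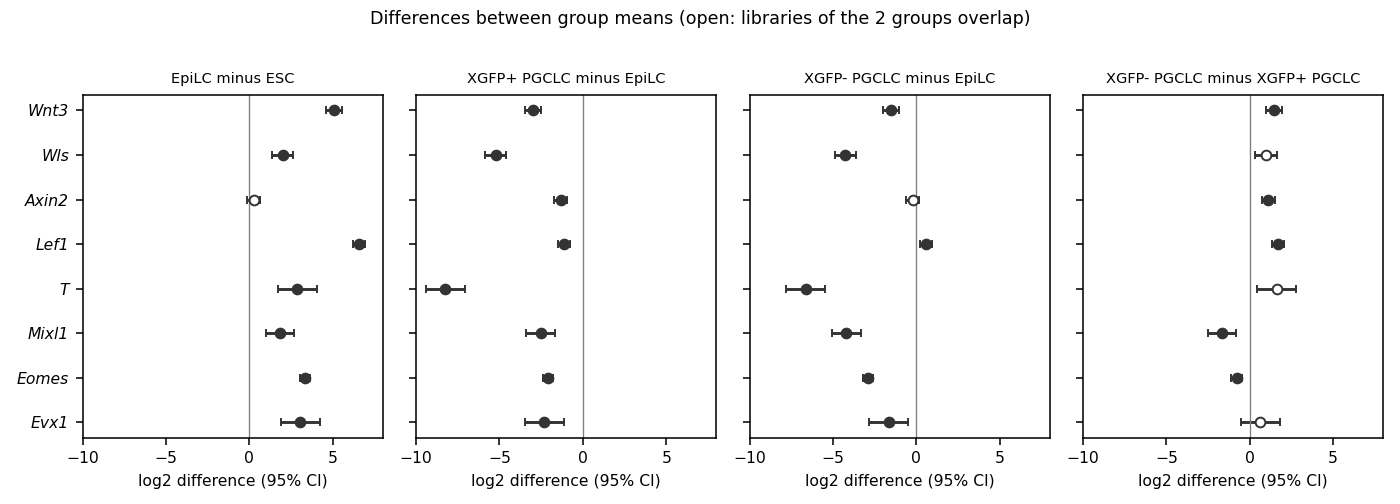
Log2 difference of log2(normalized count + 1) with its 95% interval for the 8 members, with a panel per comparison. Between XGFP- and XGFP+ PGCLCs, Lef1 (1.71), Wnt3 (1.46) and Axin2 (1.10) lie above 0 and Eomes (-0.79) and Mixl1 (-1.66) below, without overlap of the libraries. T (1.60), Wls (0.97) and Evx1 (0.64) also lie above 0, but their libraries overlap.

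Levels of different genes can be compared only per length. Per kilobase of exon, the EpiLC mean was 536 ± 102 for Eomes, 524 ± 444 for T, 432 ± 128.3 for Wnt3, 245 ± 35.9 for Axin2 and 198 ± 43.01 for Lef1. Eomes, T and Wnt3 did not differ beyond the spread of their libraries, and that spread was widest for T. Wls, at 96.0 ± 26.4, was lower, and Mixl1 and Evx1, at 36.2 ± 10.9 and 30.2 ± 18.8 per kilobase, were the lowest members in EpiLCs.

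EpiLC replicate 4 was the highest EpiLC library for 7 of the 8 members, and Lef1 was the exception. The summed count of 6 neurectoderm markers was 9558, 12190, 12400 and 17170 in EpiLC replicates 1 to 4. Most of it was Nes, at 8069, 11070, 11018 and 16175, whereas Tubb3 (1214, 855, 1008 and 731) and Pax6 (45.1, 25.7, 22.9 and 11.8) were lowest in replicate 4. The sum of 5 measured markers of 9 listed for gonadal somatic cells was 2931, 3515, 4193 and 5596, and most of it was Fst, with 2507 in replicate 1 and 5045 in replicate 4. ESC markers were lowest there, at 7018, 5630, 3474 and 2673 in replicates 1 to 4. Without EpiLC replicate 4 the log2 difference between EpiLCs and ESCs was 4.89 for Wnt3, 1.83 for Wls, 1.67 for Mixl1, 3.22 for Eomes and 2.70 for Evx1, and all of these stayed above 0. The part of these markers in the members' levels was not tested.

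**Figure D3:**
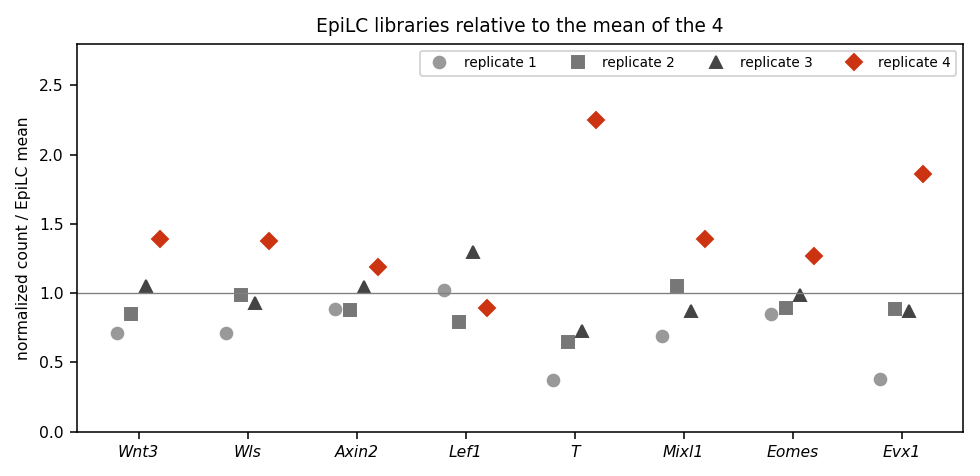
Normalized count of each of the 8 members in the 4 EpiLC libraries, divided by the mean of the EpiLC group on a linear axis, with a marker per replicate. Replicate 4 was the highest library for all members but Lef1, and T spread most, from 452 to 2729 normalized counts.

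The rest of the pathway was read from a list of 88 other WNT genes, of which 73 had a row and 72 were tested, by limma with the false discovery rate (FDR) adjusted over all 16281 genes and called below 0.001. From ESCs to EpiLCs 35 of the 72 rose and 9 fell, against 24.9% and 22.9% of all genes, with a median log2 difference of 0.48 in the list and 0.01 in all genes. Ligands moved as Wnt3 did: 7 of 9 rose and 0 fell. Wnt8a, a ligand of the posterior epiblast and streak, rose from 5.92 to 1773 (log2 8.19 ± 0.42, limma FDR 4.13e-12). Wnt4 and Wnt5a rose to 71.99 and 92.06 (limma FDR 3.97e-09 and 6.42e-09), and Wnt9b, at 0 in all 4 ESC libraries, was at least 11.7-fold higher in EpiLCs, with the ESC level set to 3 reads per library. Among receptors and other membrane regulators 14 of 23 rose and 3 fell. The secreted modulators were split, with 4 of 8 higher and 3 lower. Notum, which removes the lipid from WNT proteins, fell from 1053 to 91.6 (log2 -3.84 ± 0.38, limma FDR 5.64e-08), and Sfrp1, which binds them, from 8632 to 661 (log2 -3.70 ± 0.18, limma FDR 1.74e-12). Sfrp2 and Sfrp4, of the same family and named after their values were seen, rose from 168 to 735 and from 80.8 to 279.9 (limma FDR 3.52e-08 and 2.32e-08).

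From EpiLCs to XGFP+ PGCLCs 15 of the 72 rose and 31 fell (27.8% and 29.5% of all genes), with a list median of -0.38 against -0.00417 in all genes. In XGFP- PGCLCs against the same EpiLC libraries 24 rose and 24 fell (29.9% and 31.9% of all genes), with a list median of -0.07 against -0.03. Of the 9 ligands 7 fell and 1 rose in XGFP+ PGCLCs, and 5 fell and 1 rose in XGFP- PGCLCs. Wnt8a was the steepest, with a mean of 3.38 in XGFP+ and 2.49 in XGFP- cells (limma FDR 1.51e-12 and 6.12e-13). Wnt7b rose in both, from 83.3 to 837 and 771 (limma FDR 1.74e-07 and 2.48e-07). Porcn, the enzyme that attaches the lipid to WNT proteins, rose from 354 to 3496 in XGFP+ PGCLCs (log2 3.39 ± 0.22, limma FDR 9.95e-11) and to 5414 in XGFP- PGCLCs (log2 4.03 ± 0.22, limma FDR 6.61e-12). The lipid enzyme and the carrier Wls of the same secretion route thus moved in opposite directions. Ccnd1, a cyclin gene and known WNT target, fell from 7778 to 175 in XGFP+ and 26.3 in XGFP- cells (limma FDR 1.1e-12 and 5.34e-15).

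Between the PGCLC groups, 22 of the 72 WNT genes were higher in XGFP- cells and 7 were lower, against 11.3% and 12.5% of all genes, with a median of 0.24 in the list and 0.01 in all genes. Many of those that rose sit in the membrane: 14 of 23 receptors, co-receptors and membrane regulators were higher in XGFP- cells and 0 were lower. The 14 were Fzd1, Fzd2, Fzd3, Fzd5, Fzd8, Fzd9, Fzd10, Ryk, Ror2, Lgr4, Lgr5, Rnf43, Kremen1 and Kremen2. This group was counted apart after its values were seen, and it is mixed in function: Frizzleds receive the signal, Lgr4 and Lgr5 bind R-spondins, which strengthen it, while Rnf43 removes Frizzleds and the Kremen proteins bind Dkk inhibitors. The largest rise was in Lgr5, at 49.4, 59.9, 52.9 and 43.3 in XGFP- libraries and 0, 7.51, 0 and 10.7 in XGFP+ libraries (log2 4.04 ± 0.64, limma FDR 4.86e-05). Rnf43 was at 127.2 against 21.1 (log2 2.51 ± 0.21, limma FDR 2.56e-08). Rspo3, an R-spondin and so a ligand of the Lgr receptors, was at 117.4 against 15.8 (log2 2.89 ± 0.30, limma FDR 3.87e-07). With an added limit of 1 on the absolute log2 difference, 9 of the 22 WNT genes and 6 of the 14 membrane genes remained.

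Known inhibitors lay on both sides of the comparison. Of the 8 secreted modulators 2 were higher in XGFP- PGCLCs, Rspo3 and Sfrp1, and 2 were lower. Sfrp1, named after its values were seen, was at 2127 against 880.3 (log2 1.26 ± 0.18, limma FDR 1.32e-05). Amer1, an X-linked gene whose product brings the destruction complex to the membrane, was at 149.7 against 902 (log2 -2.57 ± 0.10, limma FDR 5.17e-12). Sfrp5 and Sfrp2, secreted WNT-binding proteins, were at 1.20 against 12.3 and 91.1 against 226 (limma FDR 6.16e-05 and 6.88e-05), and Nkd2, a feedback inhibitor, was at 28.7 against 100.3 (limma FDR 1.46e-07). Ccnd1 was also lower in XGFP- cells, by 2.58 on the log2 scale (limma FDR 2.73e-07), whereas Axin2 and Lef1, as described above, were higher there.

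Of a list of 26 other streak and mesoderm genes, 15 had a row and were tested. From ESCs to EpiLCs 6 rose and 5 fell (list median 0.26, with the same shares and median of all genes as above). Fgf8, a signal of the streak, rose from 2.45 to 514 (log2 7.35 ± 0.45, limma FDR 5.93e-11), whereas Gsc, a factor of the anterior streak, fell from 187 to 27.2 (log2 -2.74 ± 0.43, limma FDR 1.65e-05) and Cdx1, a posterior factor, from 191 to 6.24 (limma FDR 2.49e-12). From EpiLCs to XGFP+ PGCLCs 3 rose and 6 fell (27.8% and 29.5% of all genes, list median -0.48). To XGFP- PGCLCs 3 rose and 7 fell (29.9% and 31.9% of all genes, list median -0.89). Fgf8 fell to 11.1 and 15.7 (limma FDR 2.85e-09 and 6.91e-09). Gata2, a factor of blood and other mesoderm derivatives that PGCLCs are also known to express, rose from 9.01 to 478 and 1239 (limma FDR 2.34e-12 and 8.55e-14). Lhx1 rose from 8.71 to 124.5 and 174.6 (limma FDR 1.26e-08 and 1.84e-09).

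Between the PGCLC groups 4 of the 15 were higher and 3 lower in XGFP- cells, against 11.3% and 12.5% of all genes. The median was 0.42 in the list and 0.01 in all genes. Nkx1-2, a gene of the posterior epiblast, was the strongest, at 124.3 against 14.8 (log2 3.05 ± 0.25, limma FDR 2.05e-08). The other calls lay just under the threshold: Mesp2, Gata2 and Fgf17 were higher (limma FDR 0.000607, 0.000501 and 0.00068), and Tcf15, Pdgfra and Twist1 lower (limma FDR 0.000693, 0.000481 and 0.000508). Leaving out 1 library left 1 to 4 higher and 0 to 2 lower. The count of higher genes was 1 without XGFP+ replicate 1 or 4 or XGFP- replicate 1, 2 or 3, and 2 without XGFP+ replicate 2. The count of lower genes was 0 without XGFP+ replicate 2, and it was 1 without XGFP+ replicate 1, 3 or 4 or XGFP- replicate 1, 2 or 3.

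**Figure D4:**
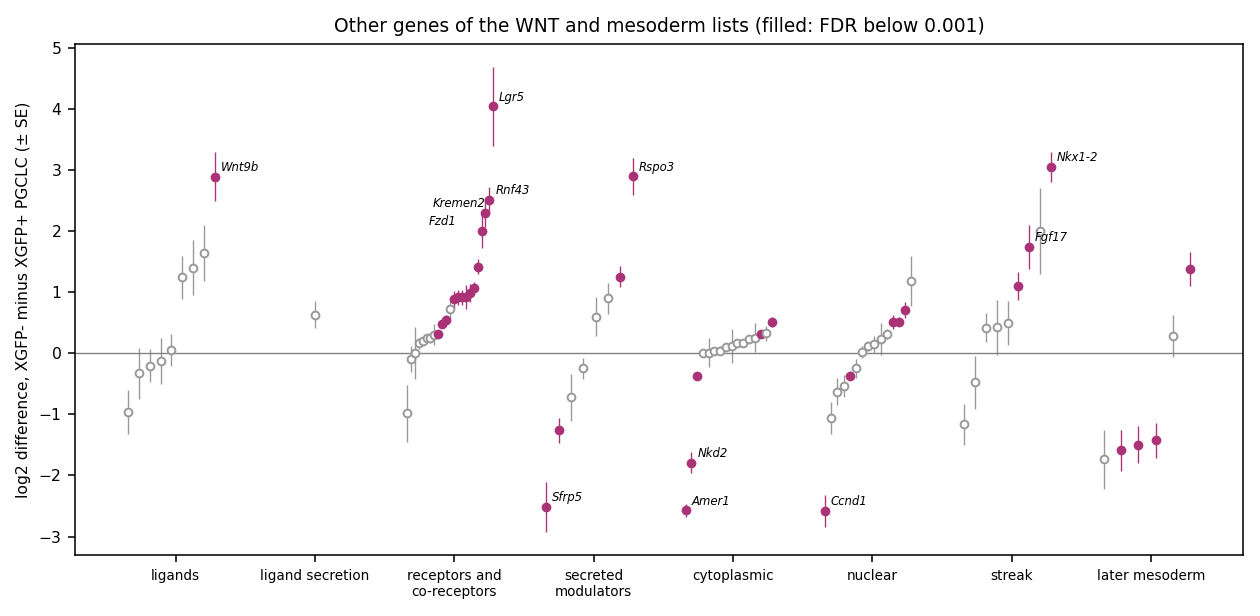
Log2 difference between XGFP- and XGFP+ PGCLCs, with its SE, for the other WNT pathway genes and the other streak and mesoderm genes that were tested, grouped by role and filled where limma called them at an FDR below 0.001. Among the membrane genes of the pathway 14 of 23 were called higher and 0 lower in XGFP- PGCLCs.

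Among all tested genes, those whose 4 group means ran most like those of T, by the Euclidean distance between centred log2 means, were Gm26922, DQ267102 and Igtp, at distances of 1.22, 1.41 and 1.47. For Axin2 they were Spag4, Btn2a2 and Mesp2, at 0.16, 0.174 and 0.205. Mesp2 is itself on the streak list, and it was at 36.76, 43.26, 20.03 and 43.65 in ESCs, EpiLCs, XGFP+ and XGFP- PGCLCs.

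Porcn is X-linked, so its reads could be split by allele. The fraction of its allelic reads from the musculus X, the X that is silenced in this line, was 0.424 ± 0.0141 in XGFP+ PGCLCs, with 0.403 to 0.432 in the libraries, and 0.321 ± 0.00806 in XGFP- PGCLCs, with 0.313 to 0.33. The musculus share was thus lower, but not near 0, in cells sorted for a silent musculus reporter, while the level of Porcn was higher there. It was 0.344 ± 0.0324 in EpiLCs, and in ESCs it spread from 0.344 to 0.758. The reads behind these fractions are unknown. On chromosome 13, Nkd2 had a musculus fraction of 0.429 to 0.48 in the means of the 4 groups and Sfrp4 of 0.737 to 0.906. For Foxc1 the mean was 0.119 in ESCs and 0.719 in EpiLCs, and it was listed at 0 in every PGCLC library, where no allelic read may have been present.

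In rOvary germ cells each sorted population is 1 sample, so its values are given with intervals that cover counting error only, and no test was made. A cell was kept if it had 4000 or more genes, 10000 or more reads, and no more than 5% of its reads from mitochondrial genes. This kept 93.6% of the wells of the XGFP+ constitutive population (88 cells), 86.8% of XGFPhigh wells (125 cells), 88.9% of XGFPintermediate wells, 89% of XGFPlow wells and all 24 ESCs. Median depth was 354149 reads per cell in the constitutive population, 636623 to 645474 in the other 3 and 1103780 in ESCs. In 10 empty wells no member had a read. The ESCs were from another flow cell, so their differences from the other populations cannot be told apart from the run. The constitutive cells were all in lane 2, which also held 14 XGFPhigh, 16 XGFPintermediate and 15 XGFPlow cells, and the rest of these 3 populations was in lane 3.

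Lef1 was lower and Eomes higher in XGFPhigh cells than in the populations sorted for less GFP. The median musculus fraction of Porcn was close in XGFPhigh, XGFPintermediate and XGFPlow cells (0.438, 0.447 and 0.456). Porcn is a single gene and does not measure the whole X. Lef1 was at 7.80 reads-per-million (RPM, reads of the gene per total reads of the population) in XGFPhigh cells (95% exact Poisson interval 7.21 to 8.43), 20.7 in XGFPintermediate cells (19.7 to 21.7) and 24.3 in XGFPlow cells (23.2 to 25.4). It was at 5.76 in constitutive cells and 0.346 in ESCs. The share of cells with a Lef1 read was 36% in XGFPhigh, 67.97% in XGFPintermediate and 59.5% in XGFPlow cells, with exact binomial intervals of 27.6 to 45.1%, 59.2 to 75.9% and 50.2 to 68.3%. With every cell thinned to 100000 reads these shares were 30.4%, 53.1% and 53.7%, and 15.9% in constitutive cells. Within lanes 2 and 3, Lef1 was at 5.65 and 8.17 in XGFPhigh, 18.6 and 21.1 in XGFPintermediate and 24.5 and 24.3 in XGFPlow cells, so the order was the same in both lanes between XGFPhigh and the other 2 populations. In lane 2 the constitutive cells, at 5.76, were level with XGFPhigh cells.

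Eomes was at 13.3 RPM in XGFPhigh cells (12.5 to 14.1), 9.61 in constitutive cells (8.55 to 10.8), 1.42 in XGFPintermediate cells (1.177 to 1.698) and 3.30 in XGFPlow cells (2.91 to 3.72). The share of cells with a read was 51.2%, 31.8%, 6.25% and 8.26% in the same order, and 35.2%, 28.4%, 4.69% and 6.61% after thinning. XGFPhigh cells were above the other XGFP- derived populations in both lanes, at 7.89 and 14.2 against 1.94 and 1.32 in XGFPintermediate and 0.678 and 3.69 in XGFPlow cells. Between XGFPintermediate and XGFPlow cells the order differed between the lanes. In lane 2 the constitutive cells, at 9.61, were not below XGFPhigh cells, at 7.89. Both genes could occur in the same cell: of 125 XGFPhigh cells, 45 had Lef1, 64 had Eomes and 16 had both, and of the XGFPintermediate cells 87 had Lef1, 8 had Eomes and 6 had both. The summed ESC markers moved with these differences, at 1188 RPM in XGFPhigh, 831 in constitutive, 192.8 in XGFPintermediate and 245.4 in XGFPlow cells, mostly from Zfp42, and their part was not tested.

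The other streak factors were sparse. Evx1 was at 2.44 RPM in XGFPhigh cells (2.12 to 2.81, in 15.2% of cells), 0.0473 in XGFPintermediate cells, where all 4 reads came from 1 cell, and 1.00 in XGFPlow cells. Mixl1 lay between 0.462 and 1.88 in the rOvary populations, with reads in 3.13% to 11.4% of cells. T was at 2.81 in XGFPhigh cells, but 1 cell held 58.6% of those reads. It had 0 reads in XGFPintermediate cells, which allows up to 0.0437 RPM, and in XGFPlow cells 89.2% of its reads came from 1 cell. In cells with Dazl above 1, defined below, T was at 0.846 in XGFPhigh and had no read in XGFPlow cells.

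The Dkk genes encode secreted proteins that block WNT signalling at the LRP co-receptors, and Dkk1 and Dkk4 were measured in single cells alone (Dkk1 is ENSMUSG00000024868, chr19:30545863-30549665, minus strand, and Dkk4 is ENSMUSG00000031535, chr8:22624043-22627547, plus strand). Dkk4 was at 2.35 RPM in XGFPhigh (2.03 to 2.70), 5.68 in XGFPintermediate (5.18 to 6.21) and 4.54 in XGFPlow cells (4.08 to 5.03), with reads in 8.8%, 14.8% and 13.2% of cells. The intervals for these shares overlapped, at 4.48 to 15.2%, 9.18 to 22.2% and 7.75 to 20.6%. In lane 3 Dkk4 was at 2.15, 6.56 and 3.28 in the same order, but in lane 2, where 2 cells of each population had a read, at 3.49 (2.52 to 4.72), 1.04 (0.570 to 1.75) and 12.98, so the order of XGFPhigh and XGFPintermediate cells turned. Among cells with Dazl above 1, defined below, it was at 2.49, 6.33 and 5.49. Of 19 XGFPintermediate cells with Dkk4, 16 also had Lef1, as did 15 of 16 XGFPlow cells. Dkk1 was rarer, with reads in 1 to 4 cells of each rOvary population and a level between 0.287 and 1.40, and in XGFPintermediate cells all 52 of its reads were in 1 cell.

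Axin2 was at 2.76 RPM in XGFPhigh (2.41 to 3.14), 5.47 in XGFPintermediate (4.98 to 5.99) and 5.85 in XGFPlow cells (5.33 to 6.40), and at 4.96 in constitutive cells. After thinning, the shares of cells with a read were closer, 20.8%, 23.4% and 26.4% in the XGFPhigh, XGFPintermediate and XGFPlow populations, with overlapping intervals. Wnt3 was at 4.573, 7.999 and 9.882 in the same order, but its shares of 16.8%, 23.4% and 21.5% also had overlapping intervals. In lane 2 the 14 XGFPhigh cells had no Wnt3 read. Among cells with Dazl above 1, defined below, Wnt3 was at 4.18, 8.85 and 6.43 in the XGFPhigh, XGFPintermediate and XGFPlow populations. The other 30 XGFPlow cells were at 21.4 and held 395 of the 791 XGFPlow reads. In lane 2 Axin2 was at 1.16, 7.97 and 3.88 in the same order of populations.

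For Wls the level depended on which cells were counted. Over all cells it was at 12.98 RPM in XGFPhigh, 20.3 in XGFPintermediate and 24.6 in XGFPlow cells. Among cells with a Dazl level above 1, taken as germ cells (natural-log normalized counts per 10000), it was at 13.2, 3.09 and 2.68. The cells at or below that level, 12 XGFPintermediate and 30 XGFPlow cells, had 170.1 and 97.7. In those 12 and 30 cells the summed gonadal somatic markers were at 147.4 and 117.7 RPM, against 9.75 and 8.04 in the Dazl-positive cells. Endoderm markers were at 187 and 105 against 25.1 and 22.6, and neurectoderm markers at 92.4 and 782 against 38.6 and 39.9. Germ cell markers, a list that includes Dazl itself, were lower but present, at 176.9 and 573.9 against 4843 and 4143. PGCLC markers were at 135.7 and 571.3 against 1016 and 1096, and ESC markers at 305.4 and 401.6 against 179.9 and 198.6. The largest single gene was Axl (64.05) and Amhr2 (67.98) in the gonadal somatic sums, and Sox17 (113.2) and Hhex (39.06) in the endoderm sums. Most of the neurectoderm sums was Nes (87.24) in the 12 cells and Tubb3 (703.1) in the 30 cells. Single-cell ESCs, from another flow cell, had a neurectoderm sum of 296, of which Tubb3 was 290.7. The rOvary cells had been sorted for XTomato, the reporter carried by the XRep cells. The origin of those 12 and 30 cells was not tested. Among the XGFP- derived populations, XGFPhigh cells stayed the lowest for Lef1 and the highest for Eomes in the Dazl-positive cells. Lef1 was at 8.14, 22.8 and 29.8 and Eomes at 13.5, 0.989 and 3.28 in the XGFPhigh, XGFPintermediate and XGFPlow populations. Dazl-positive constitutive cells were lower than XGFPhigh cells for both, at 6.24 for Lef1 and 9.86 for Eomes. All constitutive cells were in lane 2, however, and most XGFPhigh cells in lane 3. Over all cells of lane 2 Lef1 was level, at 5.76 in constitutive and 5.65 in XGFPhigh cells. The order of Eomes turned there, at 9.61 (8.55 to 10.8) and 7.89 (6.385 to 9.65), with overlapping intervals.

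**Figure D5:**
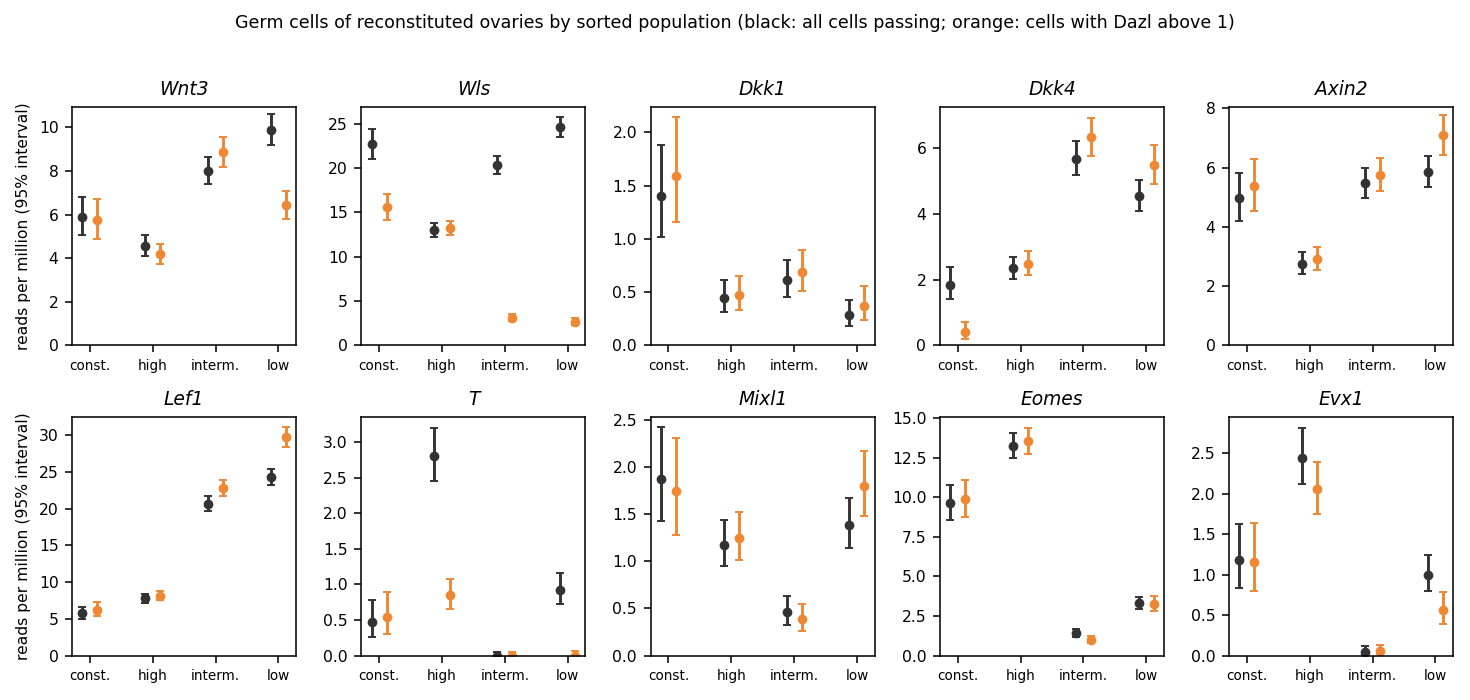
RPM of the 10 members in each rOvary population, on a linear axis with 95% exact Poisson intervals that cover counting error only, for all cells passing (black) and for cells with Dazl above 1 (orange). Lef1 was higher (20.7 and 24.3) and Eomes lower (1.42 and 3.30) in XGFPintermediate and XGFPlow than in XGFPhigh cells (7.80 and 13.3), and Wls in the former populations was high over all cells alone.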

How the data were processed

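Bulk RNA (stranded total RNA, paired-end) was aligned by the authors with STAR to mm10 with variant positions masked, filtered for mapping bias, counted per gene with HTSeq 0.6.1 and divided by DESeq2 size factors, so the deposited bulk values are normalized counts, that is, a scaled signal per gene. Single-cell values were deposited as read counts per gene, and allelic values as the fraction of reads from the musculus allele, without read numbers. GENCODE vM21 gave names, lengths and coordinates, and 238 bulk identifiers had no name. Whole reads were recovered from the steps in the bulk values (100% of values came out within 0.01 of a whole number).

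Group differences were fitted with limma 3.58.1 (R 4.3.3) on log2(normalized count + 1), with all 16 libraries in 1 model, genes with a mean above 10 (16281 of 16335), a two-sided moderated test and the Benjamini-Hochberg FDR over all these genes. The method was tested on simulated data. The members and lists were chosen with earlier results of these data known, so members were not tested and lists are given as counts. Named from the lists were, per comparison, up to 5 increases and 5 decreases with the largest log2 difference among called genes whose libraries did not overlap, genes with allelic values, and for T and Axin2 the 3 genes nearest in group means. Dkk1 had no bulk row for this. Single cells were summed per population with scipy 1.17.1 intervals. Alternatives were edgeR 4.0.16 with TMM and DESeq2 1.42.0 on recovered reads, other pseudocounts, filters, quantile normalization, the 2 compared groups alone, each library left out, and a replicate block. Replicate numbers were taken to pair XGFP+ with XGFP- PGCLCs, since deviations from the group means correlated at 0.135 to 0.307 between same-numbered libraries. This came from the data, as the labels state no shared batch. No 2 libraries of a group agreed within sampling noise. There were 4 bulk columns of another cell type that were not used.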

Additional observations from a re-analysis of the deposited data

Results flagged for a closer look

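No member library stood apart from its group by Dixon's test. The test covered 189 groups of 4 libraries, from the members and the list genes named for the largest differences, and left out the other list genes. Chance flags about 1 group in 20, and 9 groups, all of list genes, held a library apart from the other 3. These were Wnt4 in ESC replicate 3 (normalized count 3.15) and in XGFP- PGCLC replicate 4 (28.9), Twist1 in ESC replicate 4 (23.8), Cdx1 in XGFP- PGCLC replicate 3 (23.1), Fzd4 in XGFP+ PGCLC replicate 1 (7.25), Fzd9 in EpiLC replicate 2 (32.6), Wnt5b in XGFP- PGCLC replicate 1 (57.2), Rspo3 in ESC replicate 1 (2.25) and Rnf43 in ESC replicate 2 (7.90).

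In 2 genes the PGCLC groups stood on opposite sides of the same EpiLC libraries. Lef1 was 0.57 above EpiLCs in XGFP- PGCLCs and -1.14 in XGFP+ PGCLCs on the log2 scale, in every library, and this difference was not tested because the gene was chosen with it in view. Rnf43 was 1.64 above EpiLCs in XGFP- PGCLCs (higher in 4 of 4 libraries) and lower than EpiLCs in 4 of 4 XGFP+ libraries. The direct comparison of XGFP- with XGFP+ PGCLCs gave an FDR of 2.56e-08 with limma for Rnf43.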

How the results depend on the processing

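No bulk difference of a member changed its sign where the libraries of the compared groups did not overlap. The counts of called list genes have no sign to change. Of 392 alternative values of the members' bulk differences, 384 moved by less than the spread between libraries, and the other 8 were all with a pseudocount of 10 (T in 3 comparisons, Mixl1 in 3, Lef1 from ESCs to EpiLCs with 5.99, and Wls from EpiLCs to XGFP+ PGCLCs with -4.73). Of the counts of called list genes, 283 of 306 alternatives stayed within 1.5 times the count. With a mean above 50, which leaves fewer genes, 3, 3, 4 and 1 mesoderm genes were lower from ESCs to EpiLCs, from EpiLCs to XGFP+ and to XGFP- PGCLCs, and in XGFP- against XGFP+ PGCLCs (main counts 5, 6, 7 and 3). With an absolute log2 difference above 1, which only removes calls, 8 WNT genes rose from EpiLCs to XGFP+ PGCLCs and 9 were higher in XGFP- than in XGFP+ PGCLCs (main counts 15 and 22), and 6 of the 14 membrane genes remained. In XGFP- against XGFP+ PGCLCs, the 2 groups alone gave 2 higher and 0 lower mesoderm genes and quantile normalization gave 0 lower, and the cause was not tested. These mesoderm calls lay just under the threshold.

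With 1 library left out, the WNT genes called higher were 30 to 33 from ESCs to EpiLCs, 15 to 15 from EpiLCs to XGFP+ PGCLCs, 21 to 24 from EpiLCs to XGFP- PGCLCs and 18 to 22 in XGFP- against XGFP+ PGCLCs. Those called lower were 8 to 10, 29 to 31, 21 to 23 and 6 to 7 in this order. For mesoderm genes the ranges were 4 to 5, 2 to 3, 3 to 3 and 1 to 4 higher, and 4 to 5, 5 to 6, 6 to 7 and 0 to 2 lower, and for membrane genes 13 to 14 higher. Counts over the membrane genes were added after seeing the data.

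With the replicate block, the WNT genes called higher and lower were 34 and 10, 15 and 32, 24 and 23, and 22 and 7 in the same order of comparisons, the mesoderm genes 5 and 4, 3 and 6, 3 and 6, and 3 and 2, and the membrane genes 15. The pairing moved no count by over 1.5 times. A block on XGFP+ and XGFP- PGCLCs alone, added after seeing the data, left the members' differences as they were and narrowed the intervals of T and Evx1.

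In single cells, 53 of 100 alternative levels moved beyond counting error, by lane or by Dazl, and 8 of 50 shares at another thinning depth. Apart from T, Evx1, Mixl1 and Dkk1, the order of the XGFP- derived populations turned for 5 members. Wls turned in the Dazl-positive cells and in lane 2 (4.90 in XGFPhigh, 43.97 in XGFPintermediate, 13.4 in XGFPlow cells). Dkk4 turned in lane 2, where XGFPintermediate cells were the lowest. Between XGFPintermediate and XGFPlow cells, Eomes and Axin2 turned in lane 2 (Axin2 at 7.97 and 3.88). Wnt3 turned between them in lane 2 (9.17 and 8.92) and in the Dazl-positive cells (8.85 and 6.43). Depth limits T, Evx1, Mixl1 and Dkk1, whose reads came from few cells.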

Other observations

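Other genes of the lists in rOvary cells are given here by sorted population, 1 sample each and without a test. They were taken over all cells passing and not split by lane or Dazl, which moved levels of the members. Mesp2, a mesoderm factor gene higher in XGFP- than in XGFP+ PGCLCs, was at 7.60 RPM in XGFPhigh, 15.5 in XGFPintermediate and 20.5 in XGFPlow cells. Fzd3, a Frizzled receptor gene, was at 21.6, 48.4 and 43.1 and Rspo3 at 1.39, 3.38 and 3.07 in the same order. Nkx1-2, higher in XGFP- than in XGFP+ PGCLCs, was at 3.48 in XGFPhigh, 0.0355 in XGFPintermediate and had no read in XGFPlow cells. These populations all came from XGFP- PGCLCs, so their contrast is not that of the PGCLC groups. Lgr5 was at 51.4 in XGFP- against 4.56 in XGFP+ PGCLCs in bulk. In rOvary cells it was at 0.0625 to 0.121 in the 3 populations that came from XGFP- PGCLCs. It was at 4.74 in constitutive cells, which were all in lane 2.

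Porcn was at 539.7 RPM in XGFPhigh, 93.2 in XGFPintermediate and 139.3 in XGFPlow cells. In PGCLCs its bulk level was higher in XGFP- than in XGFP+ cells, which is a different contrast. Its median musculus fraction over the cells with a ratio was 0.438, 0.447 (54 cells) and 0.456 (50 cells), and 3, 16 and 10 cells were at 0.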
